A study of Mus musculus with 8 samples.

Results

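The immunoglobulin loci are the 3 stretches of the mouse genome that hold the antibody genes, and this report describes where 5-hydroxymethylcytosine (5hmC) peaks lay in them in germinal center B cells. Peaks of the 4 peak lists were merged wherever they overlapped or touched, and every merged region, called a union region below, that overlapped one of the loci was taken. The intervals, on GRCm38, were chr12:113258768-116009954 for the heavy chain locus, chr6:67555636-70726754 for the kappa light chain locus and chr16:19026858-19260844 for the lambda light chain locus. They held 588 of 356362 union regions, of which 231 lay in the heavy chain locus, 325 in the kappa locus and 32 in the lambda locus. The choice of regions used position alone and no difference between the genotypes.

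Germinal center B cells had been isolated from the spleens of C57BL/6 mice that were knockout (KO) or wild type (WT) for TET2. DNA carrying 5hmC had been immunoprecipitated and sequenced (hMeDIP-seq) from 2 KO and 2 WT libraries, numbered 2 and 3 in both genotypes, and each had an input library that is not analysed here. How TET2 was deleted, in which cells, and the age and number of the animals were not stated in the labels. Nothing says that the libraries came from separate animals, so the p-values below are set against a spread between libraries that may be technical only. In every sentence that gives 2 values for a genotype, replicate 2 stands before replicate 3. Peak lists measure neither Tet2 DNA nor its RNA, so the genotype rests on the labels alone.

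TET2 is an enzyme that oxidises 5-methylcytosine in DNA to 5hmC. An antibody heavy chain is built from V, D and J segments joined in each developing B cell, followed by the constant genes, which lie in a row on the far side of the J segments, and a light chain is built from V and J segments and a constant gene. In germinal centers the joined V gene is mutated, and breaks in the repetitive switch regions, which lie on the J side of each heavy constant gene except Ighd, let one constant gene be exchanged for another.

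The lists held 280413 and 279546 peaks in the KO libraries and 270542 and 300950 in the WT libraries. Their peaks covered 137.0 and 110.6 Mb in the KO libraries and 124.8 and 139.3 Mb in the WT libraries. KO replicate 3 thus had the smallest covered length, at a peak count close to that of KO replicate 2. Read totals were not used here, and values compared between genotypes were therefore scaled to equal covered totals. Scaled values are thus relative to each library's own total. A difference in 5hmC shared by the whole genome cannot show in them. Over the primary chromosomes, 50.3 and 40.6 bases per kb lay under a peak in the KO libraries, against 45.8 and 51.2 in the WT libraries, with a mean of 47.0. The germinal center B cell genes of a marker list, Bcl6 and Pax5 among them, carried peaks in all 4 libraries for 11 of 11 genes reported, with median coverages of 204 to 306 bases per kb. T cell genes did so for 7 of 8, at 70.4 to 104 bases per kb, myeloid genes for 3 of 5, at 53.5 to 61.9, and plasma cell genes for 2 of 4, at 13.6 to 56.7. Cd8a, Lyz2 and Sdc1 were at 0 in all 4 libraries. Coverage by 5hmC is no measure of expression, and the part of other cell types in the values below was not tested.

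No genome sequence of the files' build was used here, so the bases under the peaks are not shown. The reference sequences at hand for these intervals were promoter windows, from 250 bases before to 50 bases after a gene's start, of 12 genes inside the loci. Of the 12, 0 carried a peak in any library. Genome-wide, 9.41% of 32851 promoter windows did, and 10.1% of the 14310 windows with 5 or fewer CpG dinucleotides. At these shares, 12 windows are too few to show a difference from the genome. A pair is shown because union regions lay in the body of the same gene while the promoter had none. Gm46961 lies between the kappa V and J segments and its window is chr6:70718827-70719126 on the minus strand. Gm35545 lies in the lambda locus and its window is chr16:19218252-19218551 on the plus strand. Both are from RefSeq (GRCm38.p6), 5′ to 3′, with CpG dinucleotides, the main target of DNA methylation, in capitals.
Gm46961: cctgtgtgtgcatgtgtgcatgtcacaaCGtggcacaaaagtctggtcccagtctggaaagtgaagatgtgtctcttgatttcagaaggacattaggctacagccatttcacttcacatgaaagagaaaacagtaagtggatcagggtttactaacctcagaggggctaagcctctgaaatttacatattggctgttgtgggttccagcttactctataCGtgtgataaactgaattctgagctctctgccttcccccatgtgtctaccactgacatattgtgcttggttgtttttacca
Gm35545: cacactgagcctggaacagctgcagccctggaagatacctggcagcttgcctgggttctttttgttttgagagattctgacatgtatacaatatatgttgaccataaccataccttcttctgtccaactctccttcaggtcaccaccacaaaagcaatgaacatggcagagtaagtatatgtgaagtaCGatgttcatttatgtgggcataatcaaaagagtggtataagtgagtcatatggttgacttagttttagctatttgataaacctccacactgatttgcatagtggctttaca
The Gm46961 window holds 2 CpG dinucleotides and the Gm35545 window 1, against a median of 7 over all promoter windows. Inside the body of Gm46961 there were 3 union regions, and inside that of Gm35545 there were 5.

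Coverage was concentrated at the constant end of the heavy chain locus. The constant/J part ran from the locus end inside Igha to Ighj1 (chr12:113258768-113429833, 171 kb), and 32998 and 27710 of its bases lay under peaks in the KO libraries, against 30985 and 35465 in the WT libraries. The V part (chr12:113572929-116009954, 2437 kb) had 64363 and 47486 covered bases in the KO libraries, against 51996 and 63929 in the WT libraries. Per kb this was a mean of 186 bases in the constant/J part and 23.4 in the V part. The genome's 47.0 lay between these means. KO replicate 3 was the lowest library in both parts, as it was genome-wide. After scaling, the constant/J part exceeded the V part by 163 ± 4.85 bases per kb (SD, n = 4 libraries), or by 83.6 with only peaks of a fold of at least 5, and the ratio was 7.30 and 8.31 in the KO libraries and 8.49 and 7.90 in the WT libraries. The order held in 4 of 4 libraries, for which the exact two-sided sign-flip permutation test gave p = 0.125, the smallest it can give with 4 libraries.

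**Figure D1:**
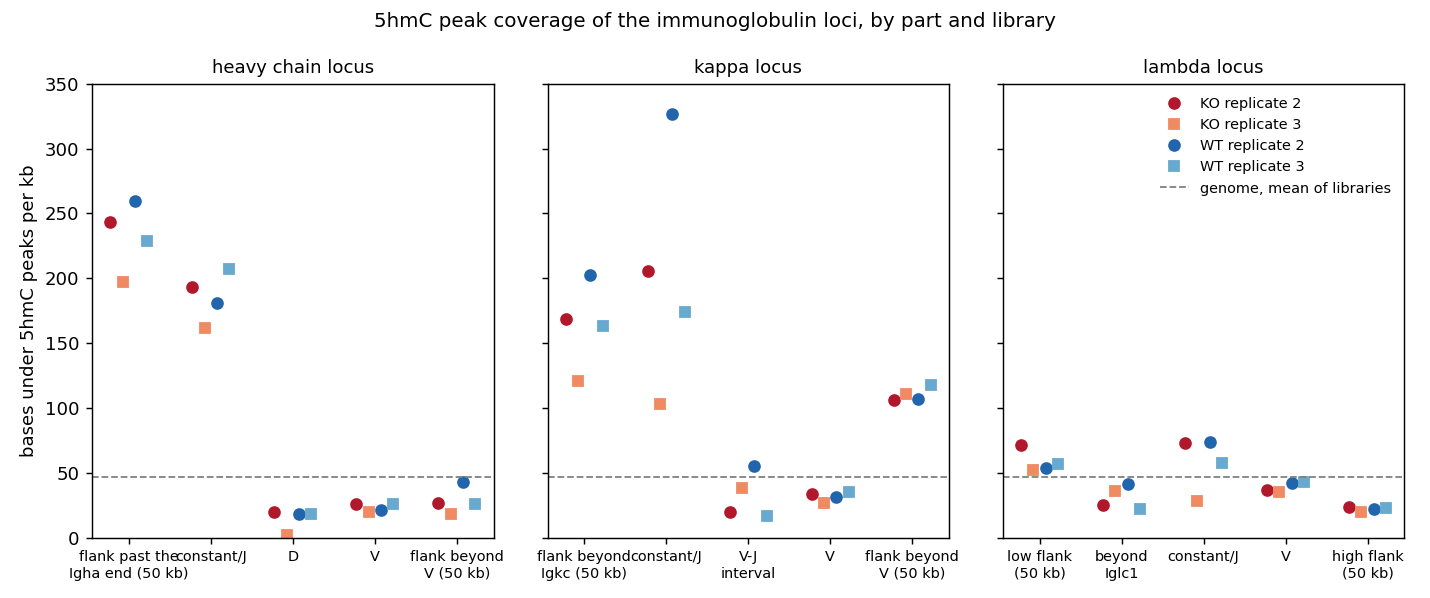
Bases under 5hmC peaks per kb, unscaled, in the constant/J part, the V part and the other parts and 50 kb flanks of the heavy chain, kappa and lambda loci, 1 point per library, with the mean over the genome as a dashed line. The heavy constant/J part and the flank past its Igha end sit far above the 47.0 bases per kb of the genome, and the heavy V part sits below it in all 4 libraries.

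In 20 kb windows ranked over the genome by their mean scaled coverage, the 8 windows of the heavy constant/J part had a median rank of 98.2%, and 5 of them stood in the top 5% and 3 in the top 1%. The 121 windows of the V part had a median rank of 24.0%, and 28.9% of them had no covered base in any library. Of the 121, 31 ranked above the median of all windows. The height of the peaks did not follow this order. The authors' fold enrichment, which is the peak's own value within its list, had a median of 4.54 and 4.17 over the constant/J peaks of the KO libraries, against 5.25 and 4.47 over the V peaks of the same libraries. In the WT libraries it was 5.12 and 4.41 over the constant/J peaks, against 6.00 and 4.65 over the V peaks. Width did follow it. Of the 54 union regions of the constant/J part, 7 were wider than 1268 bp, the width that 99% of all union regions do not exceed, against 0 of 168 in the V part and 2 of 319 in the kappa V part.

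The widest regions lay on the J side of the IgG constant genes, the side of the switch regions. On the J side of Ighg2b (IgG2b) a region at chr12:113309228-113313711 spanned 4484 bp, with 4078 and 3999 covered bases in the KO libraries and 4347 and 4146 in the WT libraries. The region on the J side of Ighg1 (IgG1), at chr12:113334105-113337564, spanned 3460 bp and had 3346 and 3070 covered bases in the KO libraries, against 2881 and 3460 in the WT libraries. That on the J side of Ighg3 (IgG3), at chr12:113362899-113365949, spanned 3051 bp, with 2608 and 2436 covered bases in the KO libraries and 2109 and 2989 in the WT libraries. On the J side of Ighg2c (IgG2c) the widest region spanned 2072 bp, at chr12:113290765-113292836, and had 1976 and 1860 covered bases in the KO libraries, against 1413 and 1922 in the WT libraries. All 4 regions had peaks in every library. Before scaling, the KO and WT values overlapped in each except on the J side of Ighg2b, where both WT values were above both KO values. After scaling the Ighg2b values overlapped as well, and on the J side of Ighg2c both KO values were above both WT values.

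Fixed windows of 10 kb on the J side of each gene gave the same split between the IgG genes and the others. For Ighg1 the window was covered over 53.8% and 45.9% in the KO libraries, against 52.0% and 58.2% in the WT libraries. For Ighg2b the values were 52.2% and 49.7% in the KO libraries, against 51.7% and 57.6% in the WT libraries. The Ighg2c window had 47.0% and 36.6% in the KO libraries and 38.2% and 43.0% in the WT libraries, and the Ighg3 window 30.3% and 27.2% in the KO libraries and 25.1% and 34.1% in the WT libraries. These 4 windows make up 23.4% of the length of the constant/J part and held 55.6% and 57.5% of its covered bases in the KO libraries, against 54.0% and 54.4% in the WT libraries.

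The windows of the other constant genes were covered far less. Igha (IgA) had 6.70% and 6.18% in the KO libraries, against 5.25% and 7.16% in the WT libraries, and its window reaches into Ighe. Ighe (IgE) had 0% and 2.74% in the KO libraries, against 0% and 7.17% in the WT libraries. Ighm (IgM), whose window also holds the J segments, had 5.18% and 0.53% in the KO libraries, against 0.10% and 4.41% in the WT libraries. Each of the 4 IgG windows was thus above each of these 3 in every library, while Ighg1 and Ighg2b, with means of 52.5% and 52.8%, differed by less than the spread between libraries. After scaling, both KO values were above both WT values for Ighg2c, with means of 4312 bases in KO and 3932 in WT libraries, and below them for Ighg1, with 5163 in KO and 5339 in WT libraries (p = 0.333 each by the exact two-sided permutation test, the smallest p it can give with 2 libraries against 2). The other 5 windows overlapped between the genotypes.

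**Figure D2:**
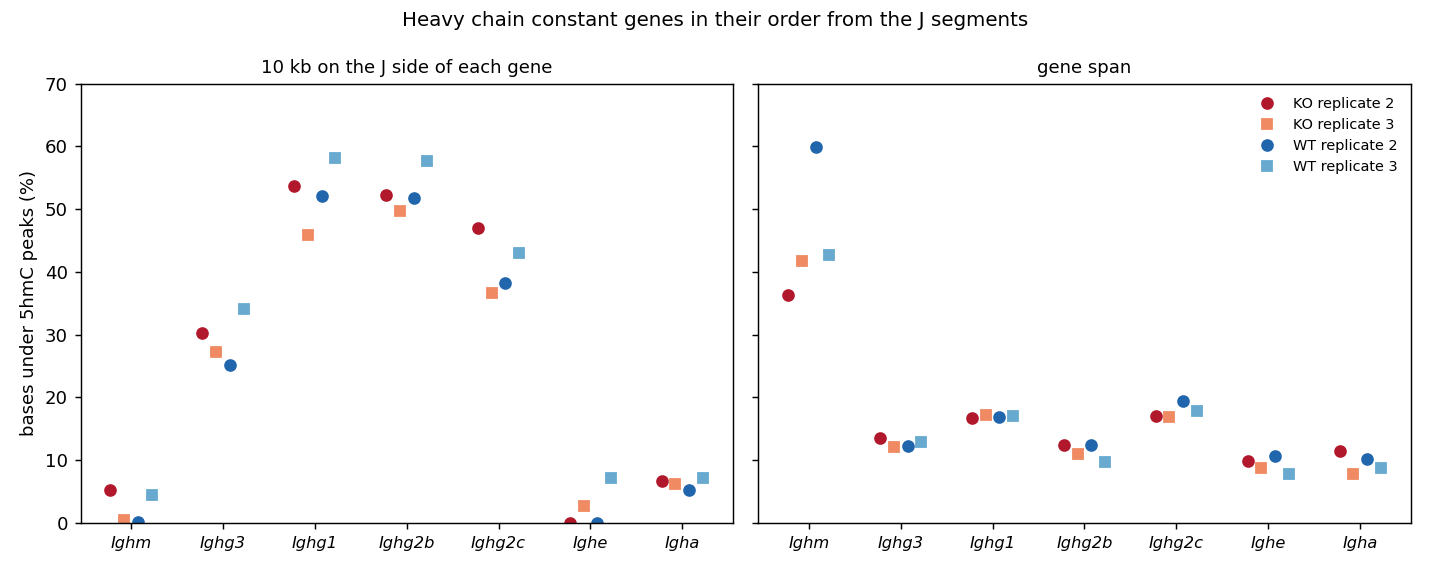
Percent of bases under 5hmC peaks in the 10 kb on the J side of heavy constant genes (left) and in the gene span (right). Genes are ordered by distance from the J segments, with 1 point per library, and Ighd is not drawn. The 4 IgG genes stand at 25.1% to 58.2% on their J side, and Ighm alone stands above 20% in its span.

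Within the gene spans the order was another. Ighm had 1417 and 1627 covered bases of 3905 in the KO libraries, against 2338 and 1668 in the WT libraries, a mean of 45.1% of the span. The WT values were both above the KO values before scaling, and after scaling the groups overlapped (exact permutation p = 0.667). The other spans had means between 9.26% (Ighe) and 17.7% (Ighg2c). Ighd (IgD) had 1149 and 947 covered bases of 8790 in the KO libraries, against 1115 and 1443 in the WT libraries. After scaling both KO values were below both WT values for Ighd and above them for Ighg3 (exact permutation p = 0.333 each). Igha had 462 and 315 of 4033 in the KO libraries, against 411 and 351 in the WT libraries, under a peak on the far side of the locus end. The Ighj cluster had 0 covered bases of 1320 in all 4 libraries.

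Peaks went on past the constant end of the interval. The 50 kb past the end of the interval (chr12:113208768-113258767) hold the far part of Igha with its peak, and beyond it lies the known 3′ regulatory region of the locus. They had 19 union regions, with 12156 and 9873 covered bases in the KO libraries and 12994 and 11418 in the WT libraries, a mean of 232 bases per kb. The 50 kb beyond the outermost V segments had a mean of 28.6 bases per kb over 5 union regions.

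**Figure D3:**
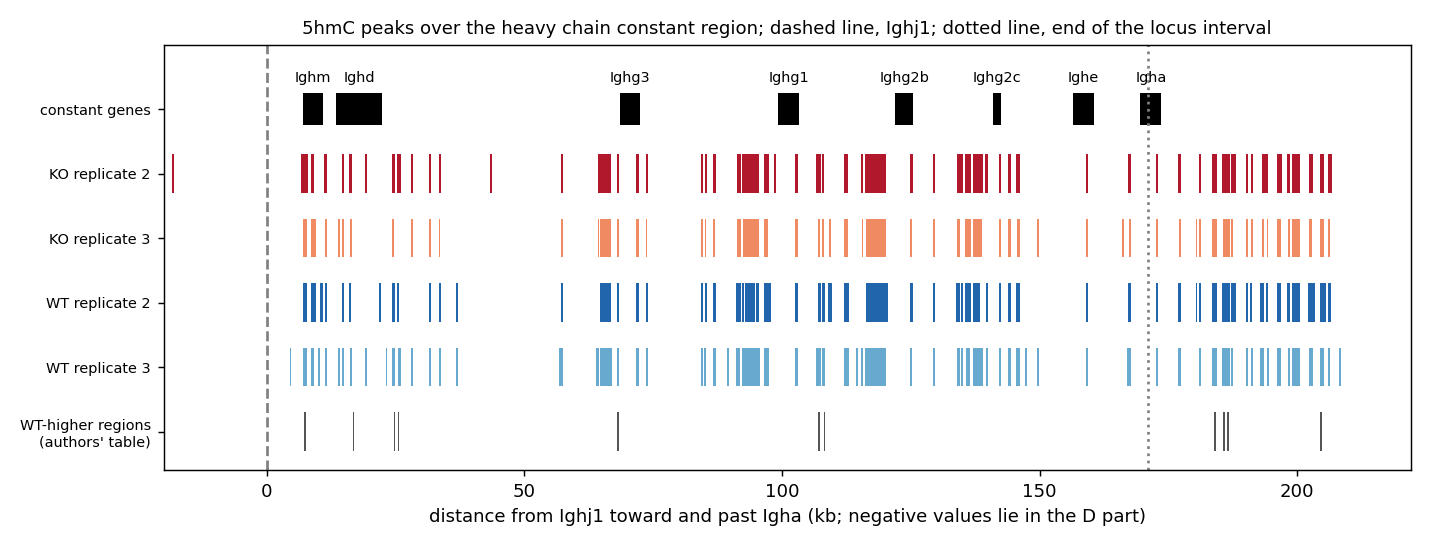
Peaks of each library along the heavy chain constant region and the flank past its Igha end, drawn to scale by distance from Ighj1 in kb, with constant genes in black and the regions of the authors' WT-higher table in grey (marks under 0.3 kb are drawn at 0.3 kb). The broad blocks on the J side of Ighg3, Ighg1, Ighg2b and Ighg2c recur in all 4 libraries, and no peak lies over Ighj1.

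By the authors' fold enrichment the constant/J part was led by a region at chr12:113322297-113323287, 3253 bp from Ighg1 on the side of Ighg2b, with folds of 9.24 and 5.69 in the KO lists and 10.2 and 7.50 in the WT lists. The next were the wide region on the J side of Ighg1 (mean fold 7.75), a region at chr12:113321512-113322090 (7.22), and the wide regions on the J side of Ighg3 (7.01) and Ighg2b (6.26). All 5 had a peak in every library.

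The D part (chr12:113429834-113572928, 143 kb) had 9 union regions and the lowest coverage of the 3 parts of the heavy locus. Covered bases were 2834 and 272 in the KO libraries, against 2594 and 2664 in the WT libraries. KO replicate 3 stood apart, with a single peak, while the other libraries were alike. The scaled log2 ratio of KO over WT was -0.79 (exact permutation p = 0.667), and without KO replicate 3 the difference turned to 98.1 scaled bases more in KO. The regions highest by fold lay near Ighd6-2 (mean 5.63), 15226 bp from Ighd5-1 (4.71), 6495 bp from Ighv5-1 (4.30), 4934 bp from Ighd1-1 (4.22) and near Ighd2-7 (4.06). None of these 5 had a peak in KO replicate 3, and the last had one in neither KO library.

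Within the heavy V part coverage rose with distance from the J segments. Cut into 4 equal stretches, it had means of 12.1, 15.5, 25.1 and 40.7 bases per kb, nearest first. The nearest stretch had 9002 and 4862 covered bases in the KO libraries, against 7106 and 8403 in the WT libraries. The farthest had 26968 and 22673 in the KO libraries, against 21844 and 27784 in the WT libraries. The order of the stretches was the same in each of the 4 libraries, while V segments per stretch numbered 53, 53, 43 and 34.

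**Figure D4:**
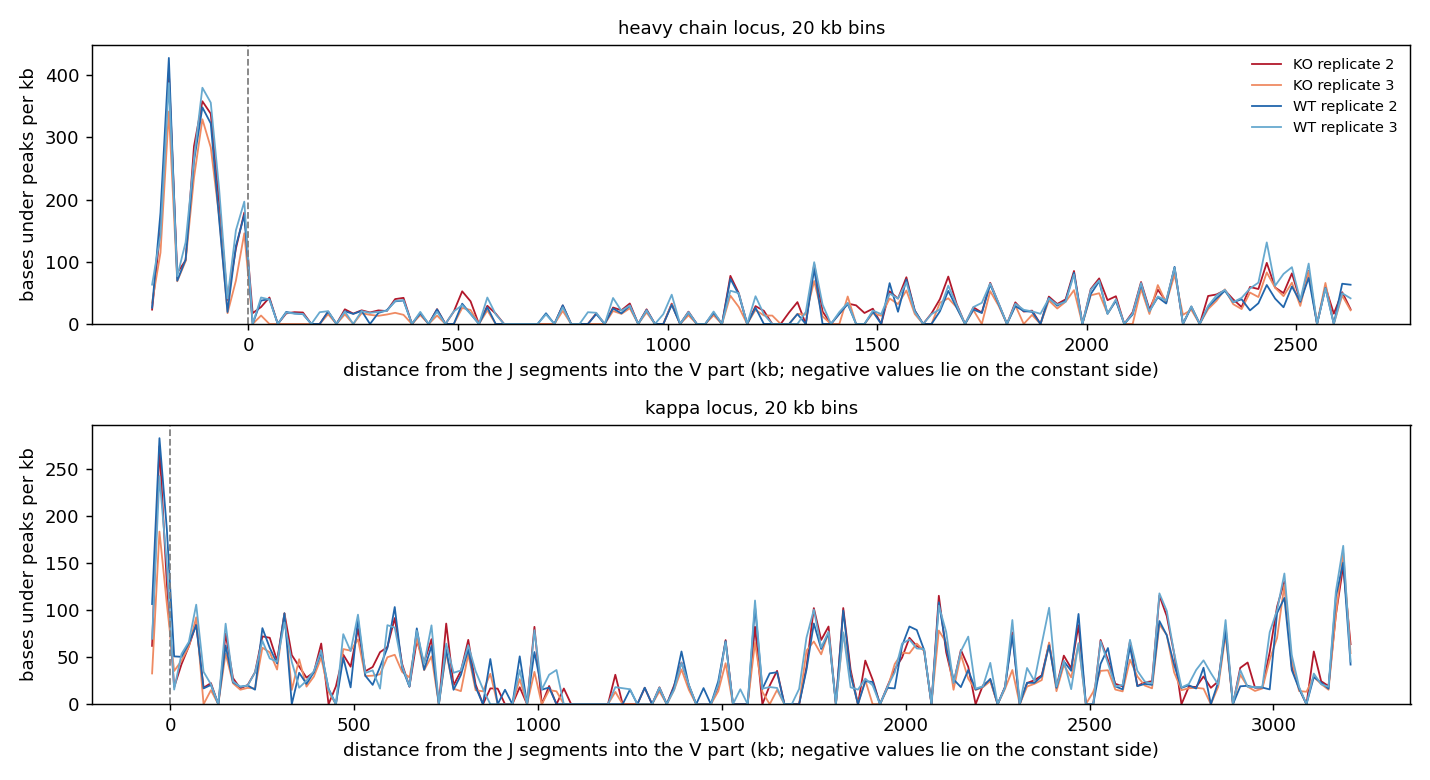
Bases under peaks per kb in 20 kb bins along the heavy chain (top) and kappa (bottom) loci and their flanks, by distance from the J segments in kb, 1 line per library. In the heavy locus coverage is highest on the constant side and climbs slowly toward the far V end, and in the kappa locus it dips in the stretch that averaged 14.1 bases per kb.

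The V regions highest by fold were isolated peaks of 577 to 816 bp with a peak in every library. They lay 285 bp from Ighv1-85 (mean fold 10.6), 6906 bp from Ighv1-55 (10.4), 6526 bp from Ighv1-62-1 (10.4), 4340 bp from Ighv4-1 (10.3) and 11925 bp from Ighv1-62-1 (10.2). The first, at chr12:116000607-116001397, had folds of 11.6 and 8.17 in the KO lists and 12.01 and 10.56 in the WT lists.

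In the kappa locus the constant/J part is short (chr6:70722562-70726754, 4.19 kb) and held 3 union regions. Covered bases were 862 and 432 in the KO libraries, against 1371 and 730 in the WT libraries. The constant gene Igkc had 256 and 161 of its 320 bases covered in the KO libraries, against 320 and 270 in the WT libraries. Both WT values were above both KO values for Igkc, and the scaled values were also apart (p = 0.333, the smallest the exact permutation test can give here). The stretch between Igkj5 and Igkc, where the known intronic enhancer lies, had 530 and 271 covered bases of 2511 in the KO libraries, against 935 and 460 in the WT libraries. The Igkj cluster had 76 and 0 of 1362 in the KO libraries, against 116 and 0 in the WT libraries.

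The 3 regions were modest in height. The region over Igkc, chr6:70726428-70727121, had folds of 5.10 and 4.89 in the KO lists and 4.24 and 2.61 in the WT lists, an order opposite to that of its covered bases. That at the end of Igkj5, chr6:70723808-70724453, had a mean fold of 3.88, and both had a peak in every library. The third, chr6:70724668-70725090, had a peak in WT replicate 2 alone, with a fold of 4.56.

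The V part (chr6:67555636-70704177, 3149 kb) had 106225 and 85453 covered bases in the KO libraries, against 97835 and 112268 in the WT libraries, a mean of 31.9 bases per kb. The scaled excess of the constant/J part over it was 170 ± 93.9 bases per kb (SD, n = 4 libraries), present in 4 of 4 libraries (exact sign-flip p = 0.125), and the ratio ranged from 3.80 in KO replicate 3 to 10.5 in WT replicate 2. With only peaks of a fold of at least 5 the difference turned to -1.08 bases per kb, higher in the constant/J part in 1 of 4 libraries. High coverage continued past Igkc, with a mean of 164 bases per kb and 24 union regions in the next 50 kb.

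The kappa V part showed no steady course from the J segments. Its 4 equal stretches averaged 41.7, 14.1, 34.1 and 37.8 bases per kb, nearest first, so the second one was the sparse one. It had 11205 and 8095 covered bases in the KO libraries, against 11930 and 13091 in the WT libraries, and after scaling both KO values were below both WT values (log2 ratio -0.29, exact permutation p = 0.333). The third stretch was apart in the same direction (log2 ratio -0.09) and the nearest one in the other, with KO above WT (log2 ratio 0.03, exact permutation p = 0.333 for both), while the farthest overlapped. The regions highest by fold lay 2042 bp from Igkv13-85 (mean 10.6), 1169 bp from Igkv16-104 (10.6), 1551 bp from Igkv10-96 (10.2), 3526 bp from Igkv2-105 (9.82) and 6773 bp from Igkv1-122 (9.69), each with a peak in every library. Between the V and J segments, the 3 regions of the Gm46961 body had mean folds of 3.61 to 3.78, and the one with a peak in all 4 libraries was chr6:70717398-70717761.

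The lambda locus has its V segments and J-C clusters interleaved, and the parts were summed over the clusters. Its V part was thus all sequence outside the clusters, except the stretch beyond Iglc1, and not only that around V segments. The constant/J part (10.6 kb) had 775 and 298 covered bases in the KO libraries, against 779 and 610 in the WT libraries, and the V part (189 kb) had 6902 and 6622 in the KO libraries, against 7895 and 8121 in the WT libraries. The scaled difference of constant/J over V was 18.1 ± 19.8 bases per kb (SD, n = 4 libraries), higher in 3 of 4 libraries (exact sign-flip p = 0.25), so it was not larger than the spread between libraries. Iglc1 was covered over 320 and 0 of its 320 bases in the KO libraries, against 320 and 209 in the WT libraries. Iglc2 had 77 of 317 bases covered in KO replicate 3 and 0 in the others, and Iglc3 and Iglc4 had 0 in all 4.

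The highest lambda regions were in its V part. That at chr16:19101808-19102508, within LOC105246083, had folds of 9.29 and 6.15 in the KO lists and 12.4 and 10.7 in the WT lists. The others lay 1403 bp from Iglv2 (mean 8.29), 3879 bp from Iglv3 (7.66), 6773 bp from Iglv3 (7.14) and 17537 bp from Iglv1 (6.12), again with a peak in every library. The 5 regions beyond Iglc1 had mean folds of 3.08 to 5.73, and the 2 of the constant/J part had 4.04 and 2.70.

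The V segments themselves were nearly free of peaks. Within 500 bp of a V segment, a peak of any library was found for 8 of 183 heavy, 19 of 162 kappa and 0 of 3 lambda segments. Over the segment's own span the numbers were 0, 2 and 0. In the heavy V part these windows had 2.50 and 2.56 covered bases per kb in the KO libraries and 3.0 and 5.74 in the WT libraries, against 29.0 and 21.4 in the KO libraries and 23.4 and 28.5 in the WT libraries in the rest of the part. The ratio of the means was 0.135. In the kappa V part the windows had 11.2 and 7.17 in the KO libraries and 11.2 and 12.9 in the WT libraries, against 35.7 and 28.8 in the KO libraries and 32.8 and 37.6 in the WT libraries in the rest, a ratio of 0.316. Both differences ran the same way in 4 of 4 libraries (exact sign-flip p = 0.125 each). The sources used here do not say how reads matching several V segments or switch repeats were placed, and its part in this was not tested.

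V segments of the T cell receptor loci, which B cells do not use, were measured with the same windows. The rest was here the remainder of these whole loci and not of a V part alone, so the ratios have an unlike base. Windows of the same size had a ratio of 0.751, with 20.2 and 18.7 bases per kb in the KO libraries and 22.3 and 28.7 in the WT libraries, and a peak near 30 of 178 segments. Over the segments' own spans the T cell receptor ratio was 0.056, with a peak at 5 of 178 segments, against 0 for heavy and 0.136 for kappa. With 200 bp on both sides it was 0.303, against 0.028 for heavy and 0.104 for kappa. The T cell receptor segments themselves were thus also nearly free of peaks (exact sign-flip p = 0.125 at both sizes). Whether the ratios of the loci differ was not tested. Windows of 1000 bp gave 0.435 for heavy, 0.610 for kappa and 1.01 for the T cell receptor loci, so the last lost its direction there.

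**Figure D5:**
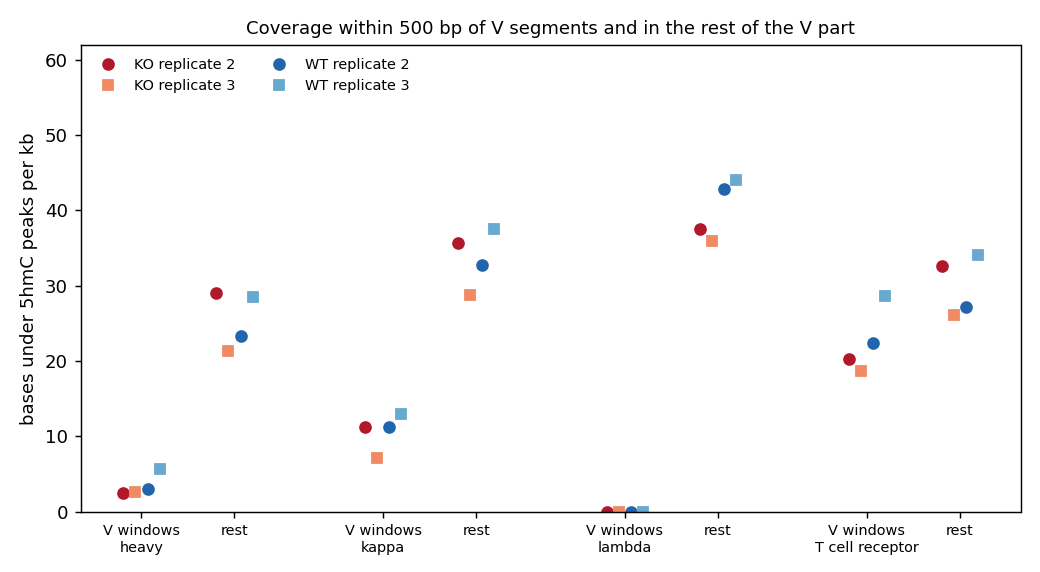
Bases under 5hmC peaks per kb within 500 bp of V segments and in the rest, 1 point per library. The rest is that of the V part for the 3 immunoglobulin loci and that of the whole loci for the T cell receptor. Windows lie below the rest in every library at all 4, with a ratio of 0.135 in the heavy locus and no peak near the 3 lambda segments.

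The V segments with the most coverage within 500 bp were mainly kappa. Igkv4-83, a pseudogene, had 426 and 308 covered bases in the KO libraries and 381 and 373 in the WT libraries, under a peak inside its own span. Igkv6-20 had 308 and 221 in the KO libraries and 270 and 278 in the WT libraries, and Igkv6-29, Igkv7-33, Igkv6-32 and the pseudogene Igkv14-134-1 had means of 256 to 268. The remaining 4 of the first 10 were the pseudogene Ighv8-15 (mean 228), Igkv3-2 (190), Ighv1-85 (180) and the pseudogene Igkv3-12-1 (168). Ighv8-15 had no peak in KO replicate 2, and Igkv3-12-1 had one only in KO replicate 2 and WT replicate 3.

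Between the genotypes, the libraries overlapped in the scaled total coverage of the heavy and lambda loci. In the kappa locus the KO libraries were slightly below the WT libraries after scaling. Before scaling, the heavy and kappa loci overlapped. The lambda locus was then apart, with 8566 and 8190 covered bases in the KO libraries, against 10120 and 9504 in the WT libraries. Scaled covered bases averaged 90425 in KO and 90719 in WT libraries over the heavy locus (exact permutation p = 0.667). Over the kappa locus they averaged 100245 in KO and 103393 in WT libraries (p = 0.333 by the exact permutation test), with both KO values below both WT values. Over the lambda locus the means were 8736 in KO and 9551 in WT libraries (exact permutation p = 0.667). The heavy constant/J part had 31432 in KO and 32164 in WT libraries, and the kappa constant/J part 652 in KO and 1038 in WT libraries (exact permutation p = 0.667 for both). The exact permutation test cannot go below 0.333 with 2 libraries against 2.

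A limma fit over 89033 windows of 20 kb, on log2(scaled covered bases + 200), called 0 windows at the adjusted p threshold of 0.05, in either direction (0% of windows higher in KO and 0% lower), and 4387 had an unadjusted p under 0.05. The loci held 139 of the tested windows, of which 0 were called and 3 had an unadjusted p under 0.05. With 2 libraries against 2, calling 0 windows does not show equal coverage. After scaling, 64 of the 139 had a log2 difference below 0 (lower in KO), and without scaling 97 did. Over all tested windows the median log2 difference was 0.021 after scaling and -0.063 without it. Both KO values lay below both WT values in 14 of the 139 windows (10.1%), against 12.2% of all windows, and above them in 29 (20.9%), against 17.0% of all windows. Without KO replicate 2 the fit called 686 windows, 1 of them in the lambda locus (chr16:19060001-19080000, adjusted p = 0.00808, log2 difference -2.91). That window holds Iglc1 and its J cluster beside a stretch of the V part, and its scaled covered bases were 1045 and 0 in the KO libraries, against 1987 and 877 in the WT libraries. Without KO replicate 3 it called 17.

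Of the 588 union regions, 437 and 426 had a peak in the KO libraries, and 421 and 485 in the WT libraries. Peaks in all 4 libraries were found at 322 of the 588, or 54.8% (95% Clopper-Pearson interval 50.6 to 58.8%), against 59.9% of all union regions, and 128 (21.8%) had a peak in a single library, against 17.3% of all. Of these, 56 (9.52% of the 588) were in WT replicate 3 alone, against 6.27% of all union regions.

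The authors' deposited table of regions higher in WT touched 18 of the 588 union regions, or 3.06% (95% interval 1.82 to 4.80%), against 6.45% of all union regions. Their deposited table of regions higher in KO touched 0 of them, against 0.00673% of all. By part, the WT-higher table touched 6 of 54 regions of the heavy constant/J part (11.1%, interval 4.19 to 22.6%), 5 of 168 of the heavy V part, 2 of 3 of the kappa constant/J part, 3 of 319 of the kappa V part and 2 of 32 of the lambda locus. The authors' deposited WT-higher table held 1 more region within Ighd that met no union region. The intervals cover counting error only and take regions as independent. The scale of the tables' score is not stated.

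The widest of the 18 was the region at the J-side end of Ighm, chr12:113421882-113423248, with 1367 and 831 covered bases in the KO libraries and 810 and 832 in the WT libraries. Its folds were 4.46 and 5.98 in the KO lists and 7.97 and 5.20 in the WT lists, so the library lists overlapped there. The next were the region 3253 bp from Ighg1 described above, a V region at chr12:115634687-115635626, the region over Iglc1 at chr16:19061730-19062530 and one 2928 bp from Ighd at chr12:113403837-113404606. The Iglc1 and Ighd regions had no peak in KO replicate 3 and one in each of the other libraries. The remaining 13 include both regions at or just past Igkj5 in the kappa constant/J part. That just past Igkj5 had the highest score of the 18 (6.34) and a peak in WT replicate 2 alone. A region beyond Iglc1, chr16:19031457-19031773, also had a peak in a single library. In the 50 kb past the Igha end of the interval 3 of 19 union regions were touched, and in the 50 kb beyond Igkc 3 of 24.

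A peak in both WT libraries and neither KO library was found at 8 of the 588 union regions, against 1.92% of all union regions, and the reverse at 7, against 1.32% of all. The loci's shares were 1.36% and 1.19%. The 8 WT-only regions lay 14418 bp from Ighd, near Ighd2-7, and nearest to Ighv7-3, Igkv1-133, Igkv4-60, Igkv12-49, Igkv6-25 and Iglv1. The 7 KO-only regions were nearest to Ighv1-16, Ighv1-46, Ighv8-5, Ighv1-81, Igkv1-88, Igkv5-37 and Igkv6-13. All 15 were small, at 327 to 451 bp, with mean folds of 3.10 to 4.32, and none of them was touched by either deposited table.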

How the data were processed

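Deposited files were 4 peak lists, 1 for each immunoprecipitated library, and 2 tables of differential regions. BWA 0.7.12-r1039, MACS2 2.1.0.20151222 and the build GRCm38.p3 are named in the submitters' processing notes, with no roles or settings. The authors' peak lists give per peak a score, a fold enrichment (a ratio to the caller's local background) and −log10 p and q values. The authors' differential tables give a score whose scale is not stated in the sources used here.

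Peaks on chromosomes 1 to 19, X and Y were merged across lists where they touched or overlapped, and an overlap of 1 bp counted. Bases under peaks were counted per library with Python 3.11.15 and scaled to equal covered totals for comparisons between genotypes. Gene and segment spans came from RefSeq (GRCm38.p6). In the heavy and kappa loci the constant/J part reached from the outermost C to the outermost J segment, the V part from the innermost V segment to the end of the interval. In the lambda locus the constant/J part was the J-C clusters. Its V part was all other sequence of the interval except the stretch beyond Iglc1. limma 3.58.1 (trend, robust) tested 20 kb windows whose mean reached 500 covered bases, with Benjamini-Hochberg adjustment over all windows. The fit was tried on simulated data with large changes only, and whether it can find smaller ones was not tested. Single values had exact permutation tests.

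Depth is known as peaks, as covered bases and as local background reads, recovered from each peak's fold and p under a Poisson model. The most frequent background was 11.55 and 10.87 reads in the KO libraries, against 8.66 and 11.69 in the WT libraries. WT replicate 2 was thus the lowest. Named were all constant genes, J clusters and J-side windows, the 5 regions of each part highest in mean fold, the 10 V segments with most coverage, all regions of 1 genotype, and the 5 widest regions touched by the deposited tables. Members and lists were chosen with earlier results of these data known. A gene of the marker list is not reported here.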

Additional observations from a re-analysis of the deposited data

How the results depend on the processing

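Of 177 alternative values, 146 kept their direction or, for counts and shares, about their size. The constant/J excess of the heavy locus kept its sign in every alternative tried, from 83.6 bases per kb with peaks of a fold of at least 5 to 169 without KO replicate 3, and without 1 library it ranged from 157 to 169. With peaks of a fold of at least 5, constant/J minus V turned to -1.08 bases per kb in kappa and -6.09 in lambda, and with equal numbers of peaks to -1.78 in lambda; without 1 library the ranges were 126 to 206 and 12.4 to 28.0. The same fold threshold turned KO minus WT to 395 scaled bases in the heavy locus, 115 in the kappa constant/J part, 189 in the lambda locus and 526 in its V part. Without scaling the heavy V part turned to -2038. The cause was not tested.

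Without 1 library, KO minus WT ranged from -3357 to 2979 scaled bases in the heavy locus, from -2185 to 98.1 in its D part, from -1193 to 4290 in its V part, from -1621 to 9.76 in the lambda locus and from -327 to 46.4 in the lambda constant/J part. It stayed below 0 in the heavy constant/J part, the kappa locus, its constant/J and V parts and the lambda V part. KO-only regions numbered 38, 26, 17 and 29 and WT-only regions 42, 20, 64 and 30 without KO replicate 2, KO replicate 3, WT replicate 2 and WT replicate 3 in turn, since a genotype with a single library left needs 1 peak; KO-only regions numbered 2 at a fold of at least 5. The WT-higher share was 4.87% at that fold (10.3% of all union regions) and 1.02% at a score of at least 5 (2.67% of all). Windows called by limma numbered 179 of 56480 at a fold of at least 5 (0 in the loci) and 0 to 686 without 1 library (0 to 1 in the loci), where the lone library of a genotype is assumed to vary like the others.

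The labels do not tie equal replicate numbers together, and the correlation of their differences across windows was 0.042, so the numbers were not taken as pairs. With the replicate number as a block, limma called 0 windows, and KO minus WT in the heavy constant/J part was -733 scaled bases (exact p = 0.5, the smallest 2 pairs can give). The V-segment windows of 0, 200 and 1000 bp and the T cell receptor comparison were chosen after seeing the data; T cell receptor windows of 1000 bp turned to 0.154 bases per kb above the rest. Peak lists hold no reads below the caller's threshold, so a stretch without a peak is not shown to lack 5hmC.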
